A study of Saccharomyces cerevisiae with 4 samples.

Results

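The comparison described here set a mevalonate kinase mutant of budding yeast, Saccharomyces cerevisiae, beside its parental strain, both in glucose medium. It was chosen by its sample label and comprises 1 of the 4 strain and carbon source comparisons of the study, measured on 2 of its 8 two-colour oligonucleotide arrays. The mutant RNA carried the red dye Cy5 and the parental RNA the green dye Cy3 on both arrays. The other comparisons paired mutant with parental in glycerol, with the same dye for each strain, and glycerol with glucose within each strain.

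The mutant, labelled DampERG12, held a DAmP allele of ERG12, per the labels with 10% of the parental mevalonate kinase activity. In a DAmP allele a marker placed behind the coding sequence disrupts the 3' untranslated region, which lowers the amount of the transcript. The parental strain was labelled BY4741, a laboratory haploid. Both strains were first grown at 30 °C in synthetic YNB medium with glucose at 20 g/L and then moved to the same medium again. The labels differ on what followed. One text has 1 h of incubation in it, another has the cells grow until an optical density of 0.5 starting at 0.1, and the last one has 1 h in YPD acidified to pH 2.5. Which of these preceded the RNA extraction was not settled here, and it applies to the mutant and the parental cells alike. The 2 arrays were labelled as biological replicates, and whether the mutant was 1 clone is not given in the sources used here.

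Mevalonate kinase phosphorylates mevalonate, the product of HMG-CoA reductase, on the route to isoprenoid units. Yeast builds ergosterol, ubiquinone, haem A, dolichol and the prenyl groups of small GTPases from these units. In other settings sterol shortage is known to raise ergosterol genes through the transcription factors Upc2 and Ecm22.

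A ratio below is the log2 of mutant over parental signal after background correction and loess normalization within each array, so it is relative to the other genes on that array. Tests covered 5343 of the 6256 genes, those well above background wherever at least 1 of the 4 conditions was measured. The 2 arrays had 5456 and 5463 genes well above background in the mutant channel, and 5192 and 5450 in the parental channel. No spot was saturated. The number of arrays limits the precision, and standard errors (SE) come from limma's moderated fit over all 8 arrays. A gene is called where its Benjamini-Hochberg adjusted p from that fit was under 0.05.

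In glucose, 376 of the 5343 tested genes (7.04%) differed between mutant and parental cells, 187 higher (3.5%) and 189 lower (3.54%) in the mutant. Counts of genes called in glucose below are to be read beside these shares. At least 2-fold changes were met by 29 of the higher and 26 of the lower genes, and 1453 genes had an unadjusted p under 0.05. The ratios ran from -2.20 for DAL5 to 5.55 for URA3 around a median of 0.0032. All 376 called genes had both arrays on 1 side of 0, as had 3967 of all tested genes, and across genes the arrays correlated with Pearson's r = 0.716, genes not being independent replicates. The value of a gene without array 1 is its array 2 ratio, and the reverse. With only 1 array for this comparison, 12 genes were called without array 1 and 5 without array 2, among them 9 and 5 of the 94 called genes that the naming rule selected. A fit of the separate channels with a dye term called 746 genes, of which 30.8% were higher, against 49.7% of the 376. Of the 376 genes 371 had the same direction in it. Its dye term rests on signals compared between arrays, since ratios within arrays cannot separate a gene's dye effect in this design. Centred on the spike-in RNA instead, the median of all genes was -1.81, and values here are relative to the genes on the array, not to the spike-in.

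**Figure D1:**
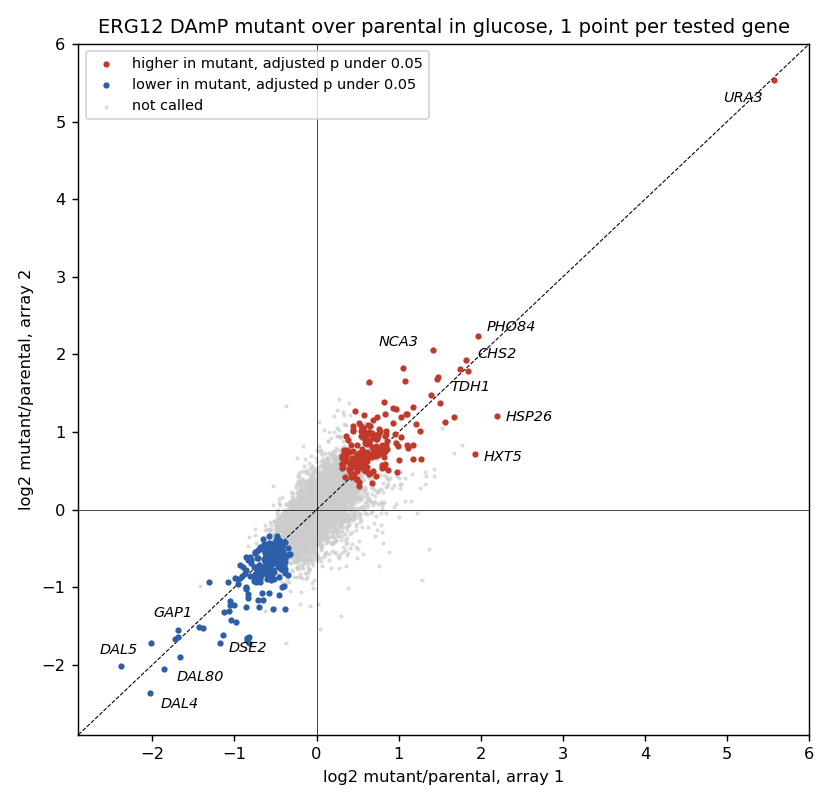
Log2 mutant over parental ratio in glucose on array 1 (horizontal) and array 2 (vertical), 1 point per tested gene, with the line of equal values dashed. URA3 lies alone at 5.57 and 5.53, the lower end holds DAL genes and GAP1, and HSP26 and HXT5 lie below the line, higher on array 1 than on array 2.

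The ERG12 transcript itself could not be measured as a ratio in glucose. On these arrays 0 of 2 mutant channels and 1 of 2 parental channels of its probe exceeded background clearly, so it was not tested and no fold is given. Its log2 signals were 6.21 and 6.17 in the mutant and 6.44 and 6.39 in the parental cells, close to the lowest signals called above background. Over the whole series 1 of 8 mutant channels and 5 of 8 parental channels did. Where the probe lies in the transcript is not given in the sources used here. Of 5 genes next to ERG12 on chromosome XIII, DML1, a gene for mitochondrial DNA inheritance, fell in the mutant, with ratios of -0.49 and -0.55 (-0.52 ± 0.10 SE, adjusted p = 0.0279 in limma). The other 4 were not called and lay between -0.05 for YMR209C and 0.52 for YMR206W, the last with 0.97 and 0.07 on the 2 arrays.

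URA3, the uracil synthesis gene that is deleted in BY4741 by its textbook genotype, had the highest ratio of all tested genes. Its log2 signals were 11.93 and 11.52 in the mutant, against 6.36 and 5.98 in the parental cells. The ratio was 5.55 ± 0.13 SE (adjusted p = 3.5e-07 in limma). The parental signal on array 2 was itself the lowest called above background there, so no exact fold is given. Over the series, 8 of 8 mutant channels and 3 of 8 parental channels of URA3 were well above background. HIS3 and LEU2, deleted in the same textbook genotype, were not above background in any of the 16 channels. MET17, deleted there too, was bright in both strains, with log2 signals of 13.03 and 13.33 in the mutant and 13.26 and 13.19 in the parental cells. LYS2, looked at after its values were seen, was also above background in all 16 channels.

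BY4741 is of mating type a by its textbook genotype, and the mating type markers did not fall on 1 side. Of the 7 a-specific genes, STE6, the a-factor exporter, and ASG7 were above background in 8 of 8 mutant and 8 of 8 parental channels. MFA1, an a-factor precursor, was in 6 mutant and 7 parental channels, and MFA2, the other precursor, in 0 mutant and 2 parental channels. AGA2, an a-agglutinin subunit, was in 6 mutant and 2 parental channels, STE2, the alpha-factor receptor, in 3 and 3, and BAR1, the alpha-factor protease, in none. Of the alpha-specific genes SAG1, alpha-agglutinin, was above background in all 16 channels. MF(ALPHA)1 was in 2 of 8 mutant and 1 of 8 parental channels, and MF(ALPHA)2 in none. STE3, the a-factor receptor, was in 2 of 8 mutant and 2 of 8 parental channels. The probes named MATALPHA1 and MATALPHA2 were also above background in all 16 channels, as was that of HMRA1, looked at after its values were seen, and the silent cassettes hold near-identical sequence. None of the 4 a-specific and 5 alpha-specific genes tested was called between mutant and parental cells in limma. Of them 2 and 1 had an unadjusted p under 0.05, beside 1453 of all 5343 tested genes. The cause of these marker patterns was not tested.

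No gene of the pathway around ERG12 was called higher in the mutant in glucose. Of the 8 tested genes of the mevalonate pathway 1 was called, HMG1, which encodes HMG-CoA reductase, the enzyme before mevalonate kinase. HMG1 was lower in the mutant, with ratios of -0.58 and -0.70 (-0.64 ± 0.13 SE, adjusted p = 0.0272 in limma). Its paralogue HMG2 had -0.31 and -0.47 and was not called (adjusted p = 0.0592). The other 6, ERG10, ERG13, ERG8, MVD1, IDI1 and ERG20, lay between -0.18 for MVD1 and 0.20 for ERG13. These genes encode the acetoacetyl-CoA and HMG-CoA synthesis steps and the steps from phosphomevalonate to farnesyl diphosphate.

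Ratios of the late ergosterol genes were mostly below 0. Of 16 tested, 2 were called, both lower in the mutant, beside 3.54% of all tested genes lower. ERG27, a sterol keto reductase, had -0.42 and -0.61 (-0.51 ± 0.12 SE, adjusted p = 0.0441 in limma). ERG6, the sterol methyltransferase, had -0.43 and -0.45 (-0.44 ± 0.10 SE, adjusted p = 0.0404 in limma). ERG7, lanosterol synthase, had a ratio as low as these, -0.44 and -0.59, and missed the threshold (adjusted p = 0.0967). ERG9, squalene synthase, had -0.29 and -0.64, while ERG1, squalene epoxidase and the target of terbinafine, had -0.07 and 0.03. Of the 16 ratios 15 were below 0, and the median was -0.33, with -0.20 on array 1 and -0.45 on array 2, beside 0.0032 over all tested genes. The calls of ERG27 and ERG6 were lost with the scanner software's processed signals (adjusted p = 0.0571 and 0.0747), with a normexp offset of 10 (0.0536 and 0.0562) and with slide row as a block (0.0608 and 0.0528). Those of ERG27, ERG6 and HMG1 were lost after median centring (adjusted p = 0.0596, 0.144 and 0.067 in limma). These calls were also lost after spike-in centring with values then taken relative to the median of all genes (0.713, 0.947 and 0.432).

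**Figure D2:**
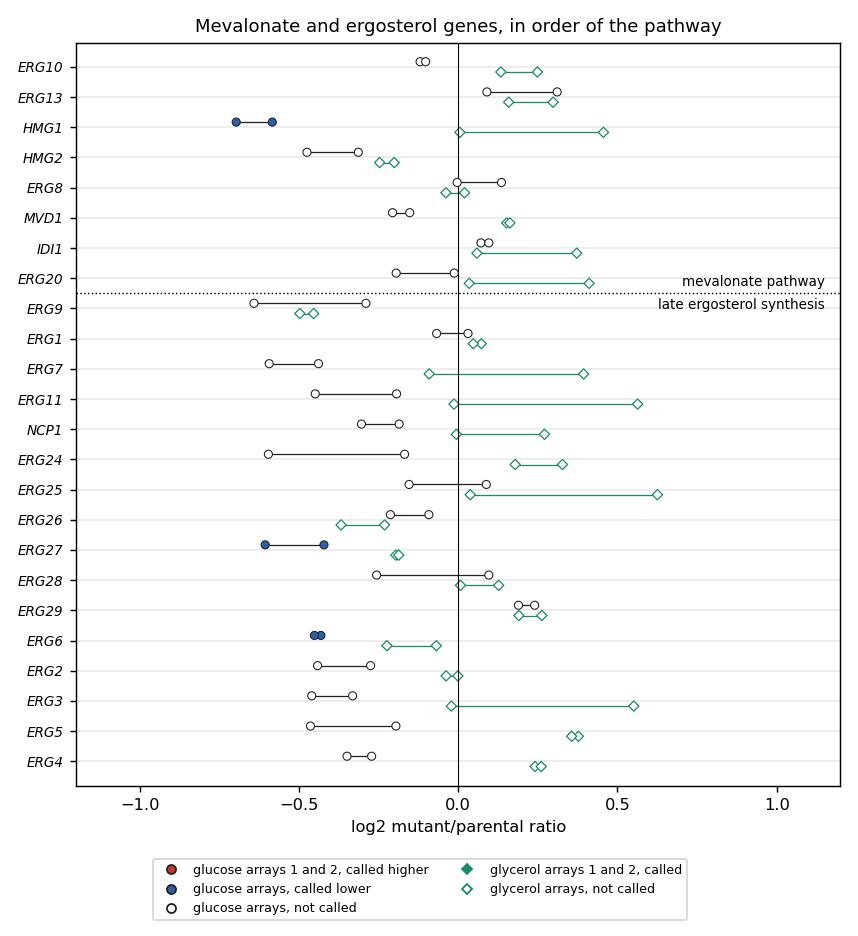
Log2 mutant over parental ratio of 24 mevalonate and ergosterol genes in the order of the pathway, circles for the 2 glucose arrays and diamonds for the 2 glycerol arrays, with a line joining arrays of 1 medium. In glucose HMG1, ERG27 and ERG6 are filled as called lower, and most late genes lie left of 0. No gene of the plot is called in glycerol.

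In glycerol the same late ergosterol genes had a median ratio of 0.14 and the mevalonate genes 0.20, with none called. The difference between the media was not called for any of the 24 genes, the median difference of the late genes being -0.35. Of the regulators and uptake genes of sterols, PDR11 and SUT1 fell in the mutant in glucose and the other 15 of 17 tested were not called. PDR11, an ABC transporter for sterol uptake, had -0.84 and -1.13 (-0.99 ± 0.13 SE), and SUT1, a transcription factor of sterol uptake, had -0.42 and -0.64 (-0.53 ± 0.11 SE). UPC2 had a ratio of 0.04 and ECM22 of -0.41, neither called.

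Genes of other isoprenoid users moved in both directions. Of 20 genes for dolichol synthesis and protein prenylation, 2 were higher and 2 lower in the mutant. RER2, a cis-prenyltransferase of dolichol synthesis, was higher with 0.39 and 0.90, and its paralogue SRT1 with 0.43 and 0.55, the parental channel of SRT1 being above background on 1 of 2 arrays. DFG10, the polyprenol reductase that completes dolichol, was lower with -0.42 and -1.00 (0.019 in the indirect ratio from the other 6 arrays), and RAM1, a farnesyltransferase subunit, with -0.56 and -0.54. None of 19 tested genes for ubiquinone and haem and none of 18 prenylated small GTPases were called in limma. An unadjusted p under 0.05 was met by 1 and 8 of them, beside 1453 of all 5343 tested genes.

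Genes for the use of poor nitrogen sources held the lowest ratios of the comparison. The GATA factors Gln3 and Gat1 activate these genes. While ammonium or glutamine is plentiful the genes stay repressed, which is known as nitrogen catabolite repression. Of 36 tested genes of this kind and amino acid permeases, 15 were lower and 2 higher in the mutant, and 19 were not called. Over all tested genes 3.54% were lower and 3.5% higher. The median of the 36 was -0.44, with -0.43 and -0.46 on the 2 arrays. All of the 10 lowest ratios among the called genes of the whole genome belonged to this list.

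DAL5, the allantoate permease, had log2 signals of 9.67 and 9.91 in the mutant, against 12.06 and 11.93 in the parental cells. The ratio was -2.20 ± 0.21 SE, 4.60-fold lower in the mutant (adjusted p = 0.00218 in limma). DAL4, the allantoin permease, had log2 signals of 8.79 and 8.39 in the mutant, against 10.82 and 10.75 in the parental cells, and was 4.58-fold lower. In both genes the mutant signals were below the parental signals on each array.

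The enzymes that break allantoin down to urea were lower as well. DAL1, allantoinase, had ratios of -1.67 and -1.90, and DAL2, allantoicase, had -1.44 and -1.51. DAL3, ureidoglycolate lyase, had -1.68 and -1.64. DAL7, the malate synthase of this route, had -1.69 and -1.55 (adjusted p = 0.00647). DUR12, urea amidolyase, named here after its values were seen, had -0.95 and -0.90. All of these enzyme genes were lower on both arrays.

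These DAL genes form a cluster on chromosome IX. The 6 genes that run without a gap from DAL1 to DAL3 were all called lower in the mutant, DCG1 between DAL2 and DAL7 with the smallest change (-0.71, adjusted p = 0.0222). The genes on either side, YVH1 with -0.10 and MGA2 with 0.24, were not called. Chromosome IX as a whole had 18 lower and 3 higher genes among 198 tested, and 12 of the 18 lay outside this run. Its median of -0.075 was the lowest of the 16 nuclear chromosomes, whose medians reached 0.033 for chromosome XII.

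Permeases and a regulator outside the cluster were among the lower genes. DUR3, the urea permease, had -2.02 and -1.72 and was 3.65-fold lower in the mutant (adjusted p = 0.00063 in limma). GAP1, the general amino acid permease, had -1.73 and -1.66 and was 3.24-fold lower (adjusted p = 0.00218 in limma). MEP2, the high-affinity ammonium permease, had -1.39 and -1.53. DAL80, a GATA repressor that is itself under this control, had -1.85 and -2.05. All 4 were lower on both arrays by more than 1 on the log2 scale.

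The further called members were named after their values were seen. PUT4, the proline permease, CAN1, the arginine permease, GAT1 and MEP3 were lower, with -1.22, -0.93, -0.91 and -0.55. GNP1, a glutamine permease, and BAP3, a branched-chain amino acid permease, were higher with 0.55 and 0.56. Both are induced by external amino acids rather than by poor nitrogen. Members that were not called ranged from -0.71 to 0.48, among them GLN3 at -0.33 and the glutamine synthetase gene GLN1 at 0.23. Outside the list UGA4, the GABA permease, had -1.22, and ARO9 and ARO10 of aromatic amino acid breakdown had -0.61 and -0.82, all called lower and chosen after their values were seen. Without array 1, 2 members of the list were still called lower, and without array 2, 1 member.

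**Figure D3:**
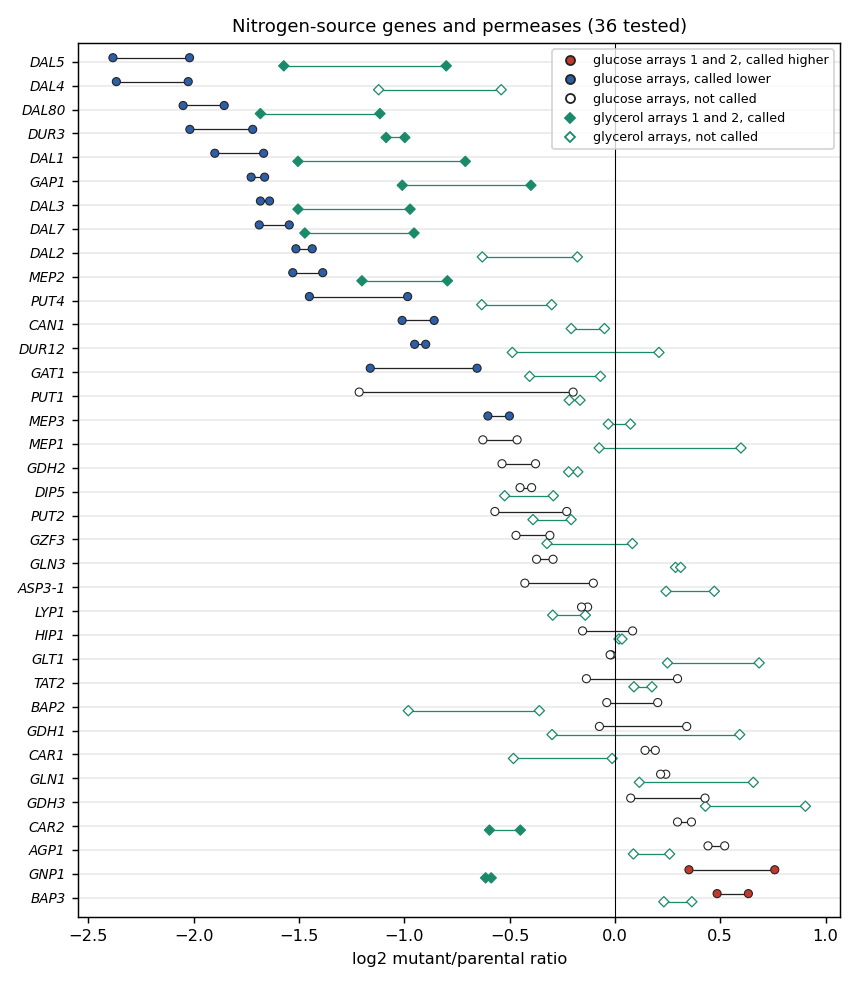
Log2 mutant over parental ratio of 36 genes for nitrogen sources and permeases, sorted by the glucose value, circles for the 2 glucose arrays and diamonds for the 2 glycerol arrays. The upper 10 genes lie at -1.39 or lower on both glucose arrays, and their glycerol values lie to the right of the glucose values. GNP1 and BAP3 at the bottom are filled as called higher in glucose.

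In glycerol 10 of these 36 genes were lower and none higher between mutant and parental, beside 0.88% of all genes lower there, with a median of -0.23. DAL4 had -2.20 in glucose and -0.83 in glycerol, and GAP1 had -1.69 and -0.70. The difference between the media was not called for any of them. Its adjusted p was lowest for GNP1, at 0.0563, which had 0.55 in glucose and -0.60 in glycerol.

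Of 22 tested genes of mitosis and daughter cell separation 6 were higher in the mutant, 3 lower and 13 not called. Over all tested genes 3.5% were higher and 3.54% lower. CHS2, the chitin synthase of the primary septum, had log2 signals of 8.86 and 8.90 in the mutant, against 7.03 and 6.97 in the parental cells. The ratio was 1.88 ± 0.12 SE, 3.68-fold higher in the mutant (adjusted p = 0.000485 in limma). Both mutant signals of CHS2 lay above both parental signals. In bulk RNA, more cells in mitosis and more transcript per cell cannot be told apart.

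CLB1, a mitotic cyclin, had 1.50 and 1.37 (1.44 ± 0.10 SE, adjusted p = 0.000637 in limma). SWI5, a transcription factor of late mitosis, had 1.09 and 1.23, with its parental channel above background on 1 of 2 arrays. BUD4, a bud site protein made in mitosis, had 0.85 and 1.02. CDC5, the polo kinase, and CLB2, another mitotic cyclin, were also higher and were named after their values were seen. CDC5 had 0.69 and 0.80. The parental channel of CLB2 was not well above background on either array, and the mutant signal was at least 1.56-fold higher than the lowest signal called above background (mean log2 signals 6.82 in the mutant and 5.94 in the parental cells, adjusted p = 0.00782 in limma). HOF1, a cytokinesis protein outside the list and likewise chosen after its values were seen, had 0.62 and 0.98 and was called higher.

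The 3 lower genes act in the separation of the daughter cell or are made there. DSE2, a daughter-specific protein with similarity to glucanases, had -1.18 and -1.72 (-1.45 ± 0.20 SE, adjusted p = 0.00852 in limma). PRY3, a secreted cell wall protein, had -0.82 and -1.71, lower on both arrays but by unequal amounts. CTS1, the chitinase that splits the septum, named after its values were seen, had -0.57 and -1.07. The other separation genes SCW11, DSE1, EGT2 and DSE4 lay between -0.58 and -0.42 and were not called. The list median was 0.13, with 0.24 and 0.03 on the 2 arrays.

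**Figure D4:**
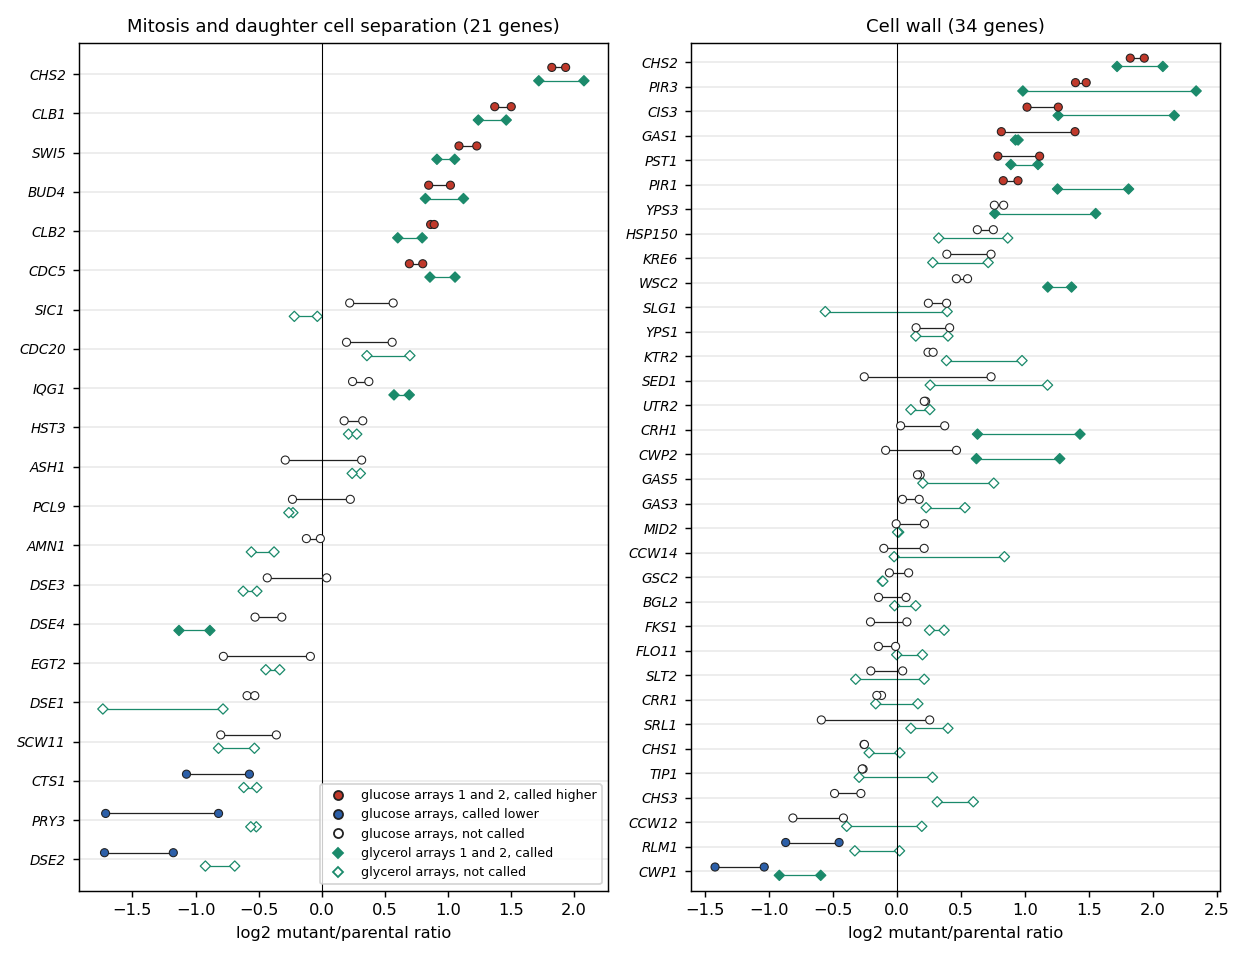
Log2 mutant over parental ratio of 21 genes of mitosis and daughter cell separation (left) and 34 cell wall genes (right), sorted by the glucose value, circles for the 2 glucose arrays and diamonds for the 2 glycerol arrays. CHS2, which is in both lists, leads both panels with means of 1.88 in glucose and 1.90 in glycerol, and the lower ends hold DSE2 and CWP1.

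In glycerol 8 of the 22 genes were higher and 1 lower in the mutant, beside 3.24% and 0.88% of all genes. CHS2 had 1.88 in glucose and 1.90 in glycerol, CLB1 1.44 and 1.35, and SWI5 1.16 and 0.98. The difference between media was -0.02 ± 0.17 SE for CHS2, and none of the 22 was called in it.

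Histone and replication genes gave 4 lower and 2 higher genes of 25 tested. HTA2, a histone H2A gene, was lower with -0.86 and -1.25, and HTB2, a histone H2B gene next to it, with -0.74 on both arrays. Their second copies HTA1 and HTB1 had 0.13 and -0.24 and were not called, and the copies are near-identical in sequence. The subunits of ribonucleotide reductase split by kind. RNR1 and RNR3, which encode the large subunit, were lower with -0.67 and -0.70, and RNR2 and RNR4, which encode the small subunit, were higher with 0.91 and 0.52.

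Of 34 tested cell wall genes 6 were higher in the mutant, 2 lower and 26 not called, beside 3.5% higher and 3.54% lower over all tested genes. The list median was 0.18 (0.23 and 0.05 on the 2 arrays). PIR3, a wall protein linked to glucan, had 1.40 and 1.48 (1.44 ± 0.34 SE, adjusted p = 0.044 in limma). CIS3, of the same protein family, had 1.26 and 1.02. GAS1, the glucanosyltransferase of glucan elongation, had 0.82 and 1.39 (1.10 ± 0.17 SE). PST1, a wall protein that is known to be raised by wall damage, had 1.11 and 0.79. Each of the 4 genes lay at 0.79 or higher on both arrays.

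PIR1, named after its values were seen, was higher with 0.83 and 0.95. CWP1, a mannoprotein of the wall, was lower with -1.04 and -1.42 (-1.23 ± 0.15 SE, adjusted p = 0.00647 in limma). RLM1, the transcription factor of the cell wall integrity pathway, named after its values were seen, was lower with -0.45 and -0.87. SLT2, the kinase above it, had -0.08 and was not called. In glycerol 10 of the 34 were higher and 1 lower, beside 3.24% and 0.88% of all genes. The list median there was 0.39.

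Phosphate transporters of high affinity were higher in the mutant. PHO84, the main high-affinity phosphate transporter, had log2 signals of 11.46 and 11.50 in the mutant, against 9.50 and 9.27 in the parental cells. It was 4.28-fold higher in the mutant (2.10 ± 0.30 SE, adjusted p = 0.00852 in limma). PHO89, the sodium-coupled transporter, had 1.47 and 1.69 and was 2.99-fold higher (adjusted p = 0.0087 in limma). Its parental log2 signals, 6.50 and 6.26, lay close to the lowest parental signals called above background, 6.35 and 5.98, so this fold is imprecise. Mutant signals of both transporters exceeded the parental signals on each array.

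Of 23 tested genes of the phosphate regulon 3 were higher, 2 lower and 18 not called, the third higher one being GPP2, a glycerol phosphatase with 1.05 and 1.82. PHO91, a vacuolar phosphate transporter, and PHO8, the vacuolar alkaline phosphatase, were lower with -0.55 and -0.50. PHO5, the secreted acid phosphatase, had 0.10, PHO81 had 0.20, and VTC1 to VTC4 of polyphosphate synthesis lay between -0.23 and 0.13, none called. SPL2, a regulator of low-affinity phosphate transport, had 1.53 and 1.05 and was not called (adjusted p = 0.102). In glycerol PHO84 had 0.43 and PHO89 1.77. The difference between media for PHO84, 1.67 ± 0.42 SE, was not called (adjusted p = 0.119).

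Of 33 tested genes for sulfate assimilation and methionine, 8 were higher, beside 3.5% of all tested genes, and 25 were not called. SUL1, a sulfate permease, had 1.10 and 1.23 (1.17 ± 0.13 SE, adjusted p = 0.00425 in limma). MUP1, the methionine permease, had 1.21 and 1.10, and MMP1, the S-methylmethionine permease, had 0.85 and 0.78. MHT1, which uses S-methylmethionine to make methionine, had 0.56 and 0.79. MET14 and MET3, the kinase and sulfurylase that activate sulfate, had means of 0.75 and 0.65, the regulator MET32 had 0.67, and the permease gene SEO1 had 0.61. MET3 and SEO1 were named after their values were seen. The list median was 0.15 in glucose. In glycerol 23 of the 33 were higher, beside 3.24% of all genes, with a median of 1.01. The lowest adjusted p in limma for a difference between media among the genes named here was 0.0558, for MET3.

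Of 10 tested hexose transporters and sensors 3 were higher in the mutant and 7 not called, with a median of 0.52 (0.85 and 0.22 on the 2 arrays). HXT4, a high-affinity transporter, had 1.56 and 1.13, HXT5 had 1.93 and 0.72, and the low-affinity HXT3 had 0.69 and 0.50. HXT2 had 1.77 and 0.83 and was not called (adjusted p = 0.0843). Of 22 glycolytic genes TDH1, a glyceraldehyde-3-phosphate dehydrogenase, and ENO1, an enolase, were called, both higher. TDH1 had 1.48 and 1.71 (1.59 ± 0.14 SE, adjusted p = 0.00218 in limma), and ENO1 had 0.75 and 0.95. Their paralogues TDH2, TDH3 and ENO2 had 0.06, -0.21 and -0.15. HXK1 had 1.68 and 0.74, PGK1 had 0.40 and 1.38, and neither was called. Whether probes of near-identical paralogues share signal was not analysed here.

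The general stress genes showed a difference between the arrays that touches their values. The 37 tested genes had a median of 0.37 on array 1 and -0.05 on array 2, and 4 were called, all higher. YGP1, a secreted glycoprotein of nutrient limitation, had 1.75 and 1.82 and was 3.44-fold higher in the mutant (adjusted p = 0.00676 in limma). HSP26, a small heat shock protein, had 2.20 and 1.21 (adjusted p = 0.0109), and HSP104 and GRE3 had means of 0.60 and 0.58. HSP12 and CTT1, other markers of this response, had 0.52 and 0.10 and were not called. Ribosome biogenesis went the other way between arrays, with medians of 0.03 and 0.41, and 2 of 43 genes were called, NOG2 with 0.64 and 1.64 and UTP20 with 0.46 and 0.47. What made the arrays differ in these groups was not tested.

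Of 38 tested genes under the activator Gcn4, 5 were lower and 1 higher, beside 3.54% and 3.5% of all tested genes. The list median was -0.22. ARG3, ornithine carbamoyltransferase, had -0.90 and -0.86, ARG56 had -0.59 and -0.80, and ARG1, argininosuccinate synthetase, had -0.56 and -0.61. LEU1 of leucine synthesis and ARO1 of the aromatic pathway were lower with -0.49 and -0.46, and ARO3, which starts the aromatic pathway, was higher with 0.50. GCN4 itself had 0.48 and was not called. LEU1 was also the 1 called gene of 10 in the leucine pathway under Leu3. ARG3 and ARG1 were the 2 called of 13 arginine and NAD genes, of which 6 had ratios above 0 and 7 below. LEU1 changed sign to 0.17 in the separate-channel fit, and ARO3 to -0.0067 in the indirect ratio from the other 6 arrays.

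Beside URA3, 2 of 18 pyrimidine genes were called, both lower in the mutant, with a list median of -0.07. URA2, which catalyses the first steps of the pathway, had -0.70 and -0.79, and FUI1, the uridine permease, had -0.62 and -0.72. Of 26 purine genes, with a median of 0.15, 3 were higher, MTD1 and GCV1 of folate-linked metabolism with 0.82 and 0.67 and ADE12 of AMP synthesis with 0.58.

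Each of the other lists held at most 3 called genes. Over all tested genes 7.04% were called, 3.5% higher and 3.54% lower. GSH1 of glutathione synthesis, the peroxiredoxin gene AHP1 and OYE3 were higher with 0.67, 0.69 and 0.56, out of 31 oxidative stress genes, AHP1 changing sign to -0.22 in the separate-channel fit. Of 23 drug transporters and their regulators AQR1 was higher with 0.77, and PDR12, a weak acid pump, and FLR1 were lower with -0.63 and -0.48. YRO2, a membrane protein, and CMK1, a calmodulin-dependent kinase, were higher with 1.37 and 1.01, out of 20 calcineurin and ion pump genes. SUR1 of sphingolipid mannosylation was higher with 0.96, the 1 called gene of 20.

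PIP2, a transcription factor for peroxisomal genes, and PEX5, the peroxisomal import receptor, were lower with -1.19 and -0.54, out of 22. PRM2, STE18 and STE5 were lower with -1.00, -0.75 and -0.44, out of 20 pheromone response genes, STE18 and STE5 encoding the G protein gamma subunit and the scaffold of that pathway. MDH1, the mitochondrial malate dehydrogenase, was higher with 0.71, the 1 called gene of 14 in the citrate cycle. GPP2 was the 1 called of 10 in glycerol metabolism. THI73 was lower with -0.84 and SNZ1 higher with 0.74, out of 23 vitamin genes. Of 137 cytosolic ribosomal protein genes RPL15A, RPS22B and RPL3 were higher with 0.97, 0.97 and 0.53, beside a list median of 0.05. Over all tested genes 3.5% were higher.

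In 14 lists no gene was called in limma. Of their 303 tested members 64 had an unadjusted p under 0.05, beside 1453 of all 5343 tested genes. Among these lists were the respiratory chain (28 tested, median 0.18), ATP synthase (16, median 0.15) and the glyoxylate cycle with gluconeogenesis (17, median 0.07). The others included 36 proteasome genes with a median of 0.25, 26 for fatty acids and phospholipids with -0.08, 18 of the unfolded protein response with 0.02 and 28 of iron uptake with -0.22. Mitochondrial ribosomal proteins (61 tested), autophagy (19) and hypoxic mannoproteins (8) had medians of 0.04, -0.08 and -0.11. FET3, the multicopper oxidase of iron uptake, had -1.42 and -0.98 and was not called (adjusted p = 0.323). Respiratory chain medians were 0.32 on array 1 and 0.07 on array 2.

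**Figure D5:**
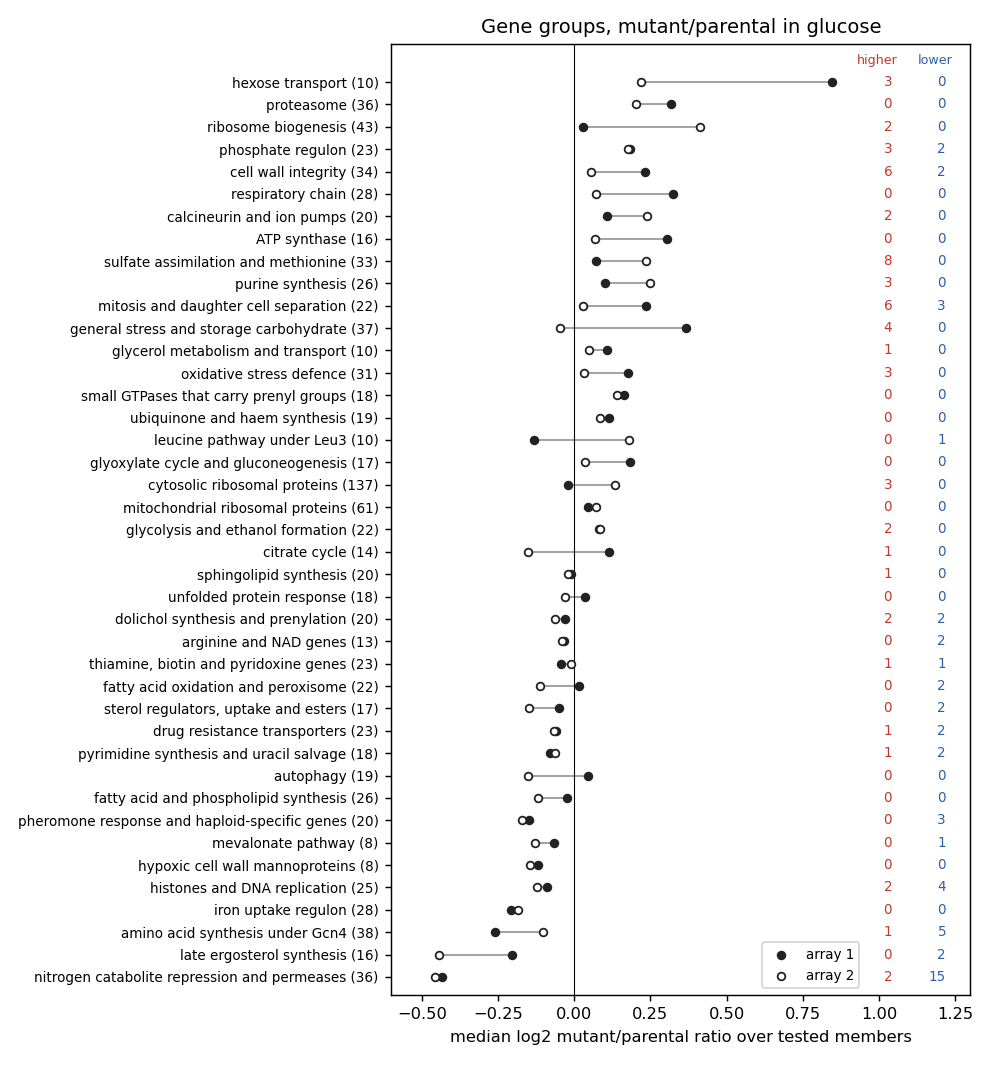
Median log2 mutant over parental ratio in glucose of the 41 of 45 gene groups with at least 8 tested members, filled for array 1 and open for array 2, with the number of genes called higher and lower at the right. The nitrogen group is lowest at -0.43 and -0.46 with 15 genes lower, and hexose transport has the widest gap, at 0.85 and 0.22.

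Among the 24 genes at the ends of the ranking, a few had no group. YNL058C, an open reading frame of no assigned function, was 3.52-fold higher in the mutant, with 1.85 and 1.79 (adjusted p = 0.000393 in limma). NCA3, a gene of the SUN family, had 1.41 and 2.06 and was 3.33-fold higher. YGL024W, an open reading frame that did not match the reference gene table, was lower with -1.13 and -1.61. Of the 376 called genes 45 had an open reading frame name only.

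The strain difference itself was compared between media. In glycerol 220 of 5343 genes (4.12%) were called, 173 higher (3.24%) and 47 lower (0.88%). Both comparisons called 91 genes, which is 24.2% of the glucose calls and 41.4% of the glycerol calls, and 86 of these had the same direction. The other 5 had opposite directions. Among them URA2 had -0.74 in glucose and 0.92 in glycerol, and RNR1 had -0.67 and 0.64. The difference between media was not called for either (adjusted p = 0.0543 and 0.0558 in limma). The mutant carried Cy5 in both media, so a gene's own dye effect would enter both strain ratios with the same sign. The difference of the strain ratios, glucose minus glycerol, was called for 1 gene (0.0187%), with 992 at an unadjusted p under 0.05. That gene was GRE1, a stress-induced hydrophilin. It had 0.36 and 0.09 in glucose and 2.46 and 2.23 in glycerol, a difference of -2.12 ± 0.18 SE (adjusted p = 0.0134 in limma). All 4 ratios were above 0, and the glycerol ratios lay above the glucose ratios. The call was lost without array 1 (adjusted p = 0.12), without array 2 (adjusted p = 0.279) and after median centring (adjusted p = 0.0662).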

How the data were processed

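RNA of 2 biological replicates per comparison (100 ng each) was labelled and hybridised to 2-colour Agilent arrays on 1 slide, per the labels' protocols. The median intensity of each spot and its local background in both dyes, and the processed intensity, come, per the file headers, from the scanner software Feature Extraction 10.10.1.1. That software also made the log10 ratio of Cy5 over Cy3 in the deposited files, which was not used for results, and flags for spots above background, saturated or outlying. The authors' deposited table, taken here as log2 values, holds 1 value per gene combined from both arrays and made with limma, per the submitters' processing notes, with its log base, centring and direction unstated. Its direction was taken as mutant over parental from the match to the log2 scanner ratios (r = 0.92 across genes, slope 0.681, and the same sign for all 376 called genes). Its median was -0.035, and its scale and centring stay unknown.

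The software was limma 3.58.1 and statmod 1.5.0 under R 4.3.3. Median signals were corrected with normexp (offset 50), which pulls dim ratios towards 0, then normalized by loess within arrays with control and outlier spots at weight 0, and both spots of a gene were averaged. Channel signals were also scaled between arrays (Aquantile). The linear model had a coefficient for each of the 4 comparisons over 8 arrays, which leaves 4 degrees of freedom per gene, and eBayes moderated the variances. An array-wide dye effect was removed by loess, but a gene's own dye effect is part of its ratio, since no dyes were swapped. Each comparison lay in its own slide column, so column and comparison cannot be told apart. Where a called gene's dim strain was at background on both arrays, the fold is a lower bound against the lowest signal called above background. On simulated data for mutant over parental in glucose with 5343 genes, the fit recovered 38.8%, 97% and 100% of genes changed by 0.5, 1 and 2 on the log2 scale, with 4 false calls. The simulated noise was normal and independent, with the fit's own moderated variances. It held no shift shared by the genes of an array, so these shares hold for such noise only.

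Gene names came from the array and the RefSeq R64 gene table, to which 5756 genes matched and 500 did not. That table gave only the chromosome and the order of genes, since the build of the array design is not given in the sources used here, and no probe or promoter sequence was analysed. The comparison, the 45 gene lists, the tests and the alternatives were chosen with earlier results of these data known. The text names ERG12 with its neighbours, the markers deleted in BY4741, all mevalonate and late ergosterol genes, the 12 highest and 12 lowest called genes, up to 6 called genes of each other list by size, and the called differences between media. A result for 1 gene is not reported here. Alternatives covered background correction, normalization, filters, arrays left out, slide row and the model.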

Additional observations from a re-analysis of the deposited data

Results flagged for a closer look

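GRE1, a stress-induced hydrophilin, was the 1 gene called in the test of the strain difference in glucose minus that in glycerol. Its log2 mutant over parental ratio was 0.23 in glucose and 2.34 in glycerol, a difference of -2.12 (adjusted p = 0.0134 in limma over 5343 genes). The difference was -2.25 without glucose array 1 and -1.98 without glucose array 2, where it was no longer called (adjusted p = 0.12 and 0.279 in limma), and it was -2.07 after median centring (adjusted p = 0.0662).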

How the results depend on the processing

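The 376 calls between mutant and parental in glucose became 250 with the scanner software's processed signals, 141 after median centring, 729 in a fit of the 2 arrays alone, 968 in the loop model, 746 with separate channels and a dye term, 52 against a 1.2-fold change and 2 in the indirect ratio from the other 6 arrays. Leaving out 1 array left between 5 and 12 calls, with fewer samples in the fit. After centring on the scanner software's spike-in intercept, used because the spike-in design ratios are not given in the sources used here, 5325 genes were called, 5324 of them lower, around a median of -1.81. Relative to that median 58 were called, 31 of them higher. The 41 calls among list members given below for spike-in centring were likewise counted relative to that median. With slide row as a replicate block 302 genes were called, 288 of them shared with the 376. Rows are only positions, no replicate numbers are given in the labels, and deviations of the same rows correlated at -0.286, 0.137 and -0.449 with the other comparisons. In the indirect ratio 373 of the 376 genes had the same sign. A gene's own dye effect enters that ratio with the same sign as in the direct ratio, so the shared sign is not free of it. Calls among list members, 105 as reported, were 49 after median centring, 41 with spike-in centring, 209 with the 2 arrays alone, between 4 and 8 with 1 array left out, 227 in the loop model, 163 with separate channels, 1 in the indirect ratio and 30 against a 1.2-fold change. The 1 called difference between media became 26 with processed signals, 24 with a normexp offset of 10 and 2 with the row block. It became 0 after median centring (678 at an unadjusted p under 0.05). With spike-in centring, here not taken relative to the median of all genes, it became 4072. It was 0 with either array left out (702 and 487 at an unadjusted p under 0.05). Among 94 called named genes, those that reversed were DFG10 (0.019) and ARO3 (-0.0067) in the indirect ratio, and AHP1 (-0.22) and LEU1 (0.17) with separate channels. The cause was not tested for these changes. Of the 94 genes 66 stayed called with processed signals, 87 with an offset of 10, 47 after median centring, 78 with the row block and 75 with separate channels. Without the filter on dim genes 376 genes were called, 340 of them shared with the 376 reported, and with all 4 channels above background 363 were called. The median of chromosome IX was -0.067 without that filter. The motif shares of promoters that were planned were not run. The arrays number 2, dim genes such as ERG12 have no ratio, and a gene's own dye effect was not separated by a dye swap.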

Other observations

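Some gene families at the chromosome ends held genes that were higher in the mutant in glucose. These families and the genes below were chosen after their ratios were seen, and they are given as counts and values. The 8 YRF1 genes, which encode helicases of the subtelomeric Y' elements, were each called higher, with ratios from 0.73 to 0.88. They ranged from 0.60 to 0.76 on array 1 and from 0.86 to 0.996 on array 2. In glycerol all 8 were called higher too, with 0.62 to 0.73. The copies are near-identical in sequence, so their probes may measure 1 pool of transcripts and the 8 genes are not 8 separate results. Of 10 tested COS genes, another subtelomeric family, COS1, COS2 and COS3 were called higher with 0.73, 0.79 and 0.84, and none of the 10 was called in glycerol. Of 24 PAU genes, PAU20 was called higher with 0.78.

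YLR156W, YLR159W and YLR161W, repeated open reading frames beside the asparaginase genes on chromosome XII, were lower with -1.26, -1.25 and -1.23, and they are near-identical in sequence as well. Their values were -0.85, -0.84 and -0.83 on array 1 and -1.67, -1.65 and -1.64 on array 2. HAP4, the activator of respiratory genes, was called higher with 1.17 and 0.65, while the respiratory chain genes had no call. NRG1, a repressor of glucose-repressed genes, was called higher with 0.54 and 0.95. Of 9 tested genes without a nuclear systematic name 1 was called, AI2 of the mitochondrial genome, at least 1.21-fold higher, and the median of the 9 was 0.70 on array 1 and 0.11 on array 2.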
